A study of Mus musculus with 34 samples.

Results

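The genes described here encode 8 adhesion proteins of the immunoglobulin superfamily that sit at cell junctions: the junctional adhesion molecule genes F11r, Jam2 and Jam3, the related genes Cxadr and Esam, the nectin-like gene Cadm1, and the nectin genes Nectin2 and Nectin3. They were taken by name from the array annotation, where all 8 were found with 15 probes among 33370 gene names, 16398 of them gene symbols, and each gene was read from its probe with the highest signal. The series holds 34 one-colour microarrays of mouse testis material in 17 groups of 2, from C57BL6/j animals of 6 to 8 weeks. WT Sertoli cells, which support germ cells from inside the tubule wall, were cultured either with retinoic acid (RA), given in the labels as 1 mM over 24 hours, or with vehicle. Sertoli cells were also sorted by flow cytometry from Nanos3-knockout (N3KO) or wild-type (WT) testes, and whole testes were arrayed beside them. The epithelial cycle was sampled in dissected seminiferous tubules as 4 stage groups, running from I-III and IV-VI to VII-VIII and last to IX-XII, 5 days after injection into the testis of a lentivirus with dnRARa, a dominant negative retinoic acid receptor alpha, or with the fluorescent protein Venus, or without virus. The labels name neither the marker of the sort nor the promoter of the virus, and titles write VI-VIII where source names write VII-VIII. They call the duplicates biological without tying them to separate animals, so the p-values measure the spread between these arrays.

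Junction immunoglobulins bind across the gap between neighbouring cells and attach inside the cell to scaffold proteins such as afadin and ZO-1. JAM-B, encoded by Jam2, binds JAM-C, encoded by Jam3, and in the mouse testis this pair joins Sertoli cells to spermatids. Nectin-2 on Sertoli cells binds nectin-3 on spermatids in the same way, at the apical ectoplasmic specialization, a junction of Sertoli cells with elongating spermatids. JAM-A, encoded by F11r, and the coxsackie and adenovirus receptor, encoded by Cxadr, belong to tight junctions, which in the tubule form the blood-testis barrier. Esam is best known from endothelial cells, and Cadm1 from germ cells, where mouse males without it are infertile.

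Each value is the log2 of a spot's signal over the 75th percentile of its own array, so 0 is a spot brighter than 75% of the spots, and levels are compared between samples and never between genes. From 54.89% to 74.42% of the spots of an array were well above background, the duplicates of a group had r between 0.9735 and 0.9953 over genes, lowest for the N3KO pair, and 10 slides were scanned in 5 days. Marker lists showed what else the samples held. All 8 spermatid markers were well above background on the WT sorted arrays, against 3 of 8 on the N3KO arrays. All 7 markers of Leydig cells, the steroid-making cells outside the tubule, were above background in both sorts, at a summed level of 9.02 and 9.73 on the N3KO arrays and 10.46 and 10.48 on the WT arrays. In culture all 12 Sertoli, 8 spermatocyte, 7 spermatogonia and 6 peritubular myoid markers were above background, and spermatid markers summed to between -2.12 and -1.88, while all 5 known RA targets tested were higher with RA than with vehicle.

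All members but Cxadr were well above background on all 34 arrays, and Cxadr was on 26. F11r, Jam3 and Nectin2 had their highest group mean in RA-treated cultures, at 6.55 ± 0.02, 4.69 ± 0.03 and 2.23 ± 0 (SD, n = 2 each). Jam2, Cxadr and Cadm1 had theirs in vehicle cultures, at 4.57 ± 0.01, 0.83 ± 0.09 and 3.77 ± 0.17 (SD, n = 2 each). Esam peaked in WT sorted cells at 1 ± 0.36 and Nectin3 in untreated tubules of stages IX-XII at 6.09 ± 0.39 (SD, n = 2 each). In order of level, neighbouring groups overlapped in 7 of 16 cases for Jam2, in 8 of 16 for Jam3, Cxadr and Nectin2, in 10 for Nectin3, in 11 for F11r, in 13 for Cadm1 and in 15 for Esam. The group means spread by 7.99 for Cxadr, 6.05 for Nectin3, 5.61 for Esam and 3.13 for Jam3. The lowest Cxadr mean, in Venus tubules of IX-XII, had neither array above background, so the low end of its spread is not a measured level.

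For F11r the order began with RA cultures, vehicle cultures, N3KO sorted cells at 5.82 and WT sorted cells at 4.67, and the vehicle and N3KO groups overlapped. All tubule groups and whole testes then lay between 1.83 and 2.99. Nectin2 ran in the same order, at 2.23, 0.99, 0.26 and -0.75, with no overlap between any of these 4 groups, and between -3.25 and -1.46 in tubules and whole testes. Nectin3 ran the other way. Its tubule and whole-testis means lay between 5.08 and 6.09, and those of WT sorted cells, vehicle cultures, RA cultures and N3KO sorted cells at 2.65, 1.68, 1.39 and 0.04, with no overlap among these 4.

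**Figure D1:**
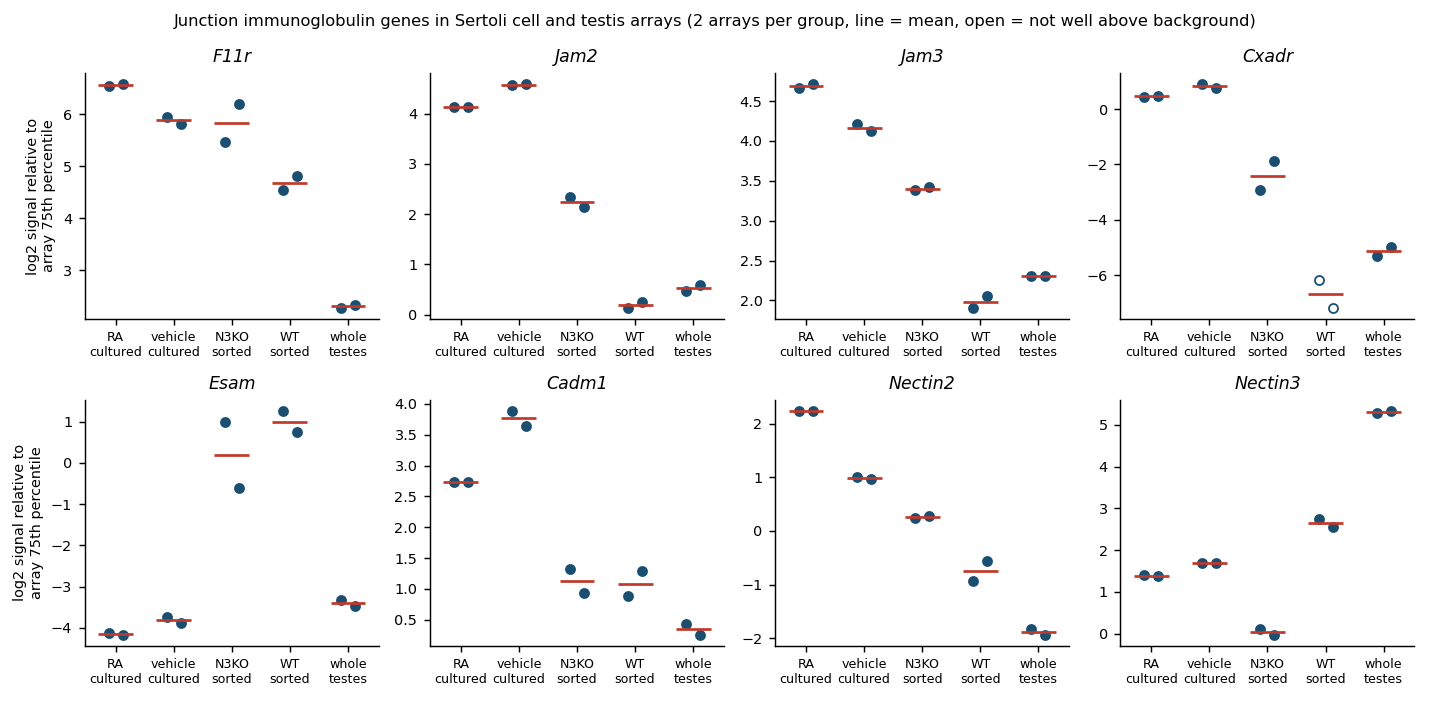
Level of each gene on the 10 Sertoli cell and testis arrays (y axis, log2 signal relative to the array 75th percentile; x axis, group; points, 1 array each; red line, mean of 2; open points, not well above background). Cxadr is open on both WT sorted arrays, and Nectin3 is highest in whole testes while F11r and Nectin2 are lowest there.

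Over the 17 group means F11r and Nectin2 correlated at r = 0.96, the closest pair of members, and over the 12 tubule means at 0.89. F11r and Nectin3 correlated at -0.94 over 17 groups but 0.57 over the 12 tubule groups, and Cadm1 and Nectin2 at 0.43 and -0.94. These correlations are descriptions of group means that share arrays, slides and cell content. The genes most like each member over the 17 means, among 13239 searched, were Litaf (r = 0.995), Dpysl2 and Syap1 for F11r, Gadd45b (0.982), Tuba1a and Tnk2 for Nectin2, and 0610010F05Rik (0.997), Ap2b1 and Zfp318 for Nectin3. They were B4galt3 (0.957), Nefl and Sarnp for Jam2, 4933434E20Rik (0.947), Zfp687 and Lrp11 for Jam3, and Car13 (0.976), Abtb2 and Bmper for Cxadr. For Esam they were Ephx1 (0.978), Thrsp and Aox1, and for Cadm1 Rbm34 (0.946), Cpd and Kctd3.

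F11r and Nectin2 moved together across the samples, so the 250 bases before their transcription starts are shown, from the RefSeq promoter table (GRCm38.p6), which held 3 of the 8 members. Capitals mark GGGCGG, the GC box bound by Sp factors, or its reverse complement CCGCCC. The F11r stretch is chr1:171437311-171437560 on the plus strand and the Nectin2 stretch chr7:19749574-19749823 on the minus strand, each written 5′ to 3′ along its gene.
F11r: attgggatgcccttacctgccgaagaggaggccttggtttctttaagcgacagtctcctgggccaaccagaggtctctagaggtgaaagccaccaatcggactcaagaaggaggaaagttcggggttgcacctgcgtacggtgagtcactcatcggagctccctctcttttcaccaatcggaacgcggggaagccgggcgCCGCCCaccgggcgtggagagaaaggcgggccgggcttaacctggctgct
Nectin2: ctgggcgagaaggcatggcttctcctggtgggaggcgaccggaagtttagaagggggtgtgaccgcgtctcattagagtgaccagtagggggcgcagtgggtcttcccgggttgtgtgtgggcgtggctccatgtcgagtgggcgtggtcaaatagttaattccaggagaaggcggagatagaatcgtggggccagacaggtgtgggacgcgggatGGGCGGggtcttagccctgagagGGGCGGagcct
The GC box was found 1 time in the F11r stretch, on the minus strand, and 2 times in the Nectin2 stretch, on the plus strand. The same window of Nectin3, which ran opposite to F11r over the 17 groups, held it 5 times. On either strand it was present in 32.7% of 32851 mouse promoters over the same 250 bases. AGGTCA, the core site of nuclear receptors including those for RA, and TATAAA, the TATA box, were present in 14% and 12.4% of those promoters and in none of these 3 windows.

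WT sorted cells were set against whole testes to describe the sorted material. F11r, Esam, Cadm1 and Nectin2 were higher in the sorted cells, and Nectin3, Cxadr, Jam2 and Jam3 lower. Esam was at 1.25 and 0.75 on the WT sorted arrays, against -3.33 and -3.48 on the whole testis arrays, a 21.2-fold difference. F11r was at 4.54 and 4.8 in WT sorted cells, against 2.28 and 2.33 in whole testes. Nectin3, the spermatid-side nectin, was at 2.75 and 2.55 in WT sorted cells, against 5.29 and 5.32 in whole testes. None of these 3 genes overlapped between the groups, with Esam and F11r high in the sort and Nectin3 low.

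In log2 units Esam differed by 4.4 (SE 0.47), F11r by 2.37 (SE 0.23), Nectin2 by 1.13 (SE 0.14), Cadm1 by 0.74 (SE 0.2) and Nectin3 by -2.66 (SE 0.11). All 8 members passed by limma at a Benjamini-Hochberg adjusted p under 0.05, 4 higher and 4 lower, with the smallest adjusted p for Nectin3 (2.48e-06). Of all genes tested 79% passed, 38.2% higher and 40.8% lower. Fewer cells of a type and less RNA per cell cannot be told apart in such bulk samples. Cxadr was below background on both WT sorted arrays and 2.9-fold lower there than in whole testes by this probe. It differed by only -0.03 with normexp background correction and by -0.07 by the mean of detected probes. Without WT replicate 2 it differed by -1.04, and without whole testes replicate 2 by -1.38. Another Cxadr probe, above background in neither group, gave 1.11 (SE 0.38). Jam2 and Jam3 were each lower by 0.32 (SE 0.11 and 0.1), and these small differences did not hold everywhere: Jam2 was 0.91 higher by the mean of its detected probes, its dimmer probe alone giving 2.15 (SE 0.4), and Jam3 at 0 under quantile scaling. Cadm1 was at -0.03 by the mean of its detected probes, since 1 of its 3 probes differed by -1.55 (SE 0.46) and another by 0.73 (SE 0.16). Leydig and endothelial markers moved with the higher members: 7 of 7 and 7 of 8 were higher in WT sorted cells, with endothelial markers summing to 4.33 and 4.86 there, against 1.26 and 1.28 in whole testes. All 8 spermatid markers were lower, with Nectin3. Sertoli markers summed to 3.84 and 4.39 in WT sorted cells, against 3.63 and 3.66 in whole testes. The part of other cell types in these differences was not tested.

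Sorted N3KO cells were set against sorted WT cells to see how the transcripts differ without Nanos3, which is needed to maintain germ cells. In N3KO cells 5 members were higher, the JAM genes F11r, Jam2 and Jam3 with Cxadr and Nectin2, and Nectin3 was lower. Jam2 was at 2.34 and 2.15 on the N3KO arrays, against 0.14 and 0.25 on the WT arrays, 4.13-fold higher. Jam3 was at 3.38 and 3.42 in N3KO cells, against 1.91 and 2.06 in WT cells. Cxadr was at -2.93 and -1.88 in N3KO cells, against -6.19 and -7.17 in WT cells, where neither array was above background. Each of these genes was higher on both N3KO arrays than on either WT array, and Cxadr was 19.4-fold higher by this probe. On the log2 scale that difference was 4.27 (SE 0.41), against 2.09 with normexp background correction and 3.12 by the mean of detected probes. Another Cxadr probe gave 4.02 (SE 0.38), and the remaining one was above background in neither group.

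Nectin3 was at 0.11 and -0.02 in N3KO cells, against 2.75 and 2.55 in WT cells, 6.1-fold lower, and its other probes gave -2.96 and -3.08 (SE 0.17 each). The differences were 2.05 for Jam2 (SE 0.11, adjusted p = 9.23e-06 by limma), 1.42 for Jam3 (SE 0.1), 1.15 for F11r (SE 0.23), 1.01 for Nectin2 (SE 0.14) and -2.61 for Nectin3 (SE 0.11, adjusted p = 2.65e-06 by limma). In all 6 of 8 members passed, against 47.9% of genes tested, 25.5% higher and 22.4% lower. Esam overlapped, at 1 and -0.6 in N3KO cells and 1.25 and 0.75 in WT cells, as did Cadm1 (0.04, SE 0.2), and neither passed by the probe read here. Without N3KO replicate 1 Esam was lower by limma (-1.6, adjusted p = 0.00115), and of the other Cadm1 probes 1 was 0.5 higher (SE 0.16, adjusted p = 0.0336 by limma) and 1 gave -1.11 (SE 0.46, adjusted p = 0.0865 by limma). Sertoli markers summed to 4.87 and 5.15 in N3KO cells, against 3.84 and 4.39 in WT cells, macrophage and immune markers to 4.48 and 6.59, against 2.11 and 3.06, and spermatid markers to -1.78 and -1.53, against 8.88 and 9.53. Spermatogonia markers were not lower by their sum, at 5.35 and 4.45 in N3KO cells, against 4.35 and 4.64 in WT cells. Of these 7 markers 4 and 3 were above background on the N3KO arrays, against 7 and 6 on the WT arrays. Genotype and slide cannot be told apart. With each array scaled by its median instead, the median over all genes was 0.64 rather than 0.07, and these 6 differences kept their direction, while in a model of these 4 arrays alone F11r and Nectin2 did not pass (adjusted p = 0.0858 and 0.0561 by limma).

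Among 13 other immunoglobulin genes of junctions, 10 were tested in these cells, 3 were higher in N3KO and 3 lower. The nectin relative Pvr was 1.9 higher (SE 0.12). Vsig1, another relative of the JAM genes, was lower in N3KO cells (-1.88, SE 0.11), and Nectin4, below background there, was 7.98-fold lower. Of 20 scaffold, polarity and adaptor genes tested 8 were higher and 1 lower, and of 7 integrin genes tested 5 were higher. Of all genes tested 25.5% were higher and 22.4% lower. The integrin list holds genes of immune cells, whose markers were also higher in N3KO cells, and their part in these counts was not tested. The median over all 37 of these partner genes was 0.59, against 0.07 for all genes.

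Vehicle cultures were set against sorted WT cells to describe the cultured cells before treatment. Cxadr, Jam2, Cadm1, Jam3, Nectin2 and F11r were higher in culture, and Esam and Nectin3 lower, so that all 8 members passed, against 74.5% of genes tested, 31.8% higher and 42.7% lower. Cxadr was at 0.89 and 0.76 on the vehicle arrays, against -6.19 and -7.17 on the WT sorted arrays, 182-fold higher by this probe. The WT arrays were below background, so the size of this difference is uncertain. The other Cxadr probes gave 6.76 (SE 0.38) and 7.1 (SE 0.23) on the log2 scale, and normexp background correction 4.33. Jam2 was at 4.56 and 4.58 in vehicle cultures, against 0.14 and 0.25 in WT sorted cells, 20.7-fold higher. Cadm1 was at 3.88 and 3.65 in vehicle cultures, against 0.88 and 1.29 in WT sorted cells. These genes were high on both cultured arrays, with no overlap.

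The differences were 4.37 for Jam2 (SE 0.11, adjusted p = 3.36e-07 by limma), 2.68 for Cadm1 (SE 0.2), 2.18 for Jam3 (SE 0.1), 1.74 for Nectin2 (SE 0.14) and 1.21 for F11r (SE 0.23). By another Cadm1 probe the difference was 1.87 (SE 0.16), and the remaining one stood at -0.54 in vehicle cultures and -0.52 in WT sorted cells. Nectin3 was lower (-0.97, SE 0.11). With each array scaled by its median the median over all genes was 0.71 rather than -0.21, and Nectin3 differed by -0.05 and did not pass. Spermatid markers summed to -2.12 and -1.91 in vehicle cultures, against 8.88 and 9.53 in WT sorted cells. Sertoli markers summed to 6.38 and 6.41 in vehicle cultures, against 3.84 and 4.39 in WT sorted cells, and Leydig markers to 3.43 and 3.54, against 10.46 and 10.48. Culture cannot be told apart from slide and scan day.

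Esam was the member lowered most in culture. It was at -3.74 and -3.89 on the vehicle arrays, against 1.25 and 0.75 on the WT sorted arrays, 28.1-fold lower (difference -4.81, SE 0.47, adjusted p = 9.1e-05 by limma). Endothelial markers summed to -0.49 and -0.45 in vehicle cultures, against 4.33 and 4.86 in WT sorted cells, and all 8 were lower in culture. The 2 N3KO arrays had Esam at 1 and -0.6, the endothelial sum at 4.77 and 2.82 and the Leydig sum at 9.73 and 9.02, so that Leydig markers, also lower in culture, ran in the same order. In RA cultures the sum was -1.33 and -1.26. On the 24 tubule arrays the endothelial sum, between -0.14 and 0.97, was above that of every cultured array. Esam on these tubule arrays, between -5.03 and -2.97, overlapped the cultured arrays. So did the Leydig sum, between 3.3 and 5.48 in tubules, against 3.43 to 3.92 in both cultures. Which cells Esam was read from was not tested.

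**Figure D2:**
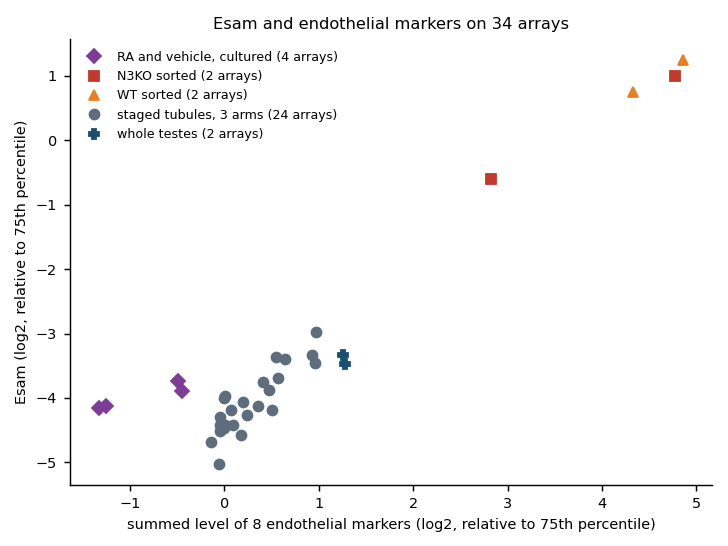
Esam (y axis) against the summed level of 8 endothelial markers (x axis), both as log2 relative to the array 75th percentile, 1 point per array. The 4 sorted arrays lie at the upper right with Esam from -0.6 to 1.25, and the cultured arrays at the lower left with Esam from -4.16 to -3.74.

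The RA cultures were set against the vehicle cultures to find the genes of Sertoli cells that respond to RA. With RA, Nectin2, the nectin of the Sertoli side, and Jam3 were higher, and Cadm1 was lower. Nectin2 was at 2.23 and 2.23 on the RA arrays, against 1 and 0.97 on the vehicle arrays, 2.37-fold higher. Jam3 was at 4.67 and 4.71 with RA, against 4.21 and 4.12 with vehicle. Cadm1 was at 2.74 and 2.74 with RA, against 3.88 and 3.65 with vehicle, 2.04-fold lower. None of the 3 overlapped between treatments, and neither did any other member.

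The differences were 1.25 for Nectin2 (SE 0.14, adjusted p = 0.00452 by limma), 0.52 for Jam3 (SE 0.1, adjusted p = 0.0386 by limma) and -1.03 for Cadm1 (SE 0.2, adjusted p = 0.0335 by limma). Thus 3 of 8 members passed, against 4.77% of all genes tested, 3.17% higher and 1.6% lower, and the members' median difference was -0.31, against 0.01 for all genes. Nectin2 passed under 11 of 13 alternatives tried, and stood at an adjusted p of 0.0517 and 0.0516 without RA replicate 2 or vehicle replicate 2, by limma. Jam3 passed under 4 of 13 and Cadm1 under 5 of 13, and without any 1 of the 4 cultured arrays neither passed, with adjusted p between 0.131 and 0.288 by limma. The other Cadm1 probes were at -0.46 (SE 0.16, adjusted p = 0.192) and -0.36 (SE 0.46, adjusted p = 0.819) by limma. The remaining members did not pass. F11r was at 6.54 and 6.57 with RA, against 5.95 and 5.81 with vehicle (difference 0.67, SE 0.23). Jam2 differed by -0.43 (SE 0.11), Cxadr by -0.36 (SE 0.41), Esam by -0.33 (SE 0.47) and Nectin3 by -0.29 (SE 0.11).

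The model takes its spread from all 10 Sertoli and testis arrays, and the cultured duplicates lay closer together than the others. In a model of the 4 cultured arrays alone all 8 members passed, as did 35.8% of all genes, so the members that did not pass are not shown to be unaffected. Of 35 partner genes tested none passed by limma, and 5 had an unadjusted p under 0.05, a level at which the share of all genes was not computed. The 9 junction immunoglobulins among them differed by between -0.29 for Vsig1 (SE 0.11) and 0.4 for Cadm4 (SE 0.09). All 4 arrays shared a slide. Spermatogonia markers, a list that holds the RA target Stra8, summed to 6.68 and 6.7 with RA, against 4.82 and 4.9 with vehicle, and endothelial markers to -1.33 and -1.26, against -0.49 and -0.45. Their part in the members' differences was not tested. The RA target gene Stra8 was 3.92 higher (SE 0.11), and Cyp26a1, below background with vehicle, was read as 696-fold higher.

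In untreated tubules the stage groups were compared to find genes that change along the epithelial cycle. Of the 8 members 5 differed among stages by limma's moderated F test with 3 numerator degrees of freedom, Jam2, Jam3, Cxadr, Nectin2 and Nectin3, against 67.9% of genes tested. Jam3 was at 3.32 and 3.59 in stages I-III, 2.73 and 3.04 in IV-VI, 2.26 and 2.5 in VII-VIII, and 2.91 and 3.48 in IX-XII, lowest in VII-VIII (adjusted p = 0.000344 by limma). Jam2, whose protein binds that of Jam3, was at -0.07 and 0.15 in I-III, 0.04 and 0.26 in IV-VI, 0.86 and 0.76 in VII-VIII, and 0.2 and 0.32 in IX-XII (adjusted p = 0.000693 by limma). By these probes Jam2 was highest and Jam3 lowest in VII-VIII of untreated tubules, and the VII-VIII arrays of either gene overlapped with no other stage group. The dimmer Jam2 probe was above background on no untreated tubule array.

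Nectin2 was at -1.97 and -1.98 in I-III, -2.85 and -2.56 in IV-VI, -1.63 and -1.38 in VII-VIII, and -1.47 and -1.59 in IX-XII (adjusted p = 0.000559 by limma). Its IV-VI arrays were the lowest and its later groups overlapped each other. Cxadr was at -4.43 and -4.6 in I-III, -3.7 and -3.75 in IV-VI, -3.82 and -4.01 in VII-VIII, and -5.19 and -5.46 in IX-XII, where neither array was above background. Nectin3 was at 5.58 and 5.49 in I-III, 5.48 and 5.47 in IV-VI, 5.61 and 5.73 in VII-VIII, and 5.82 and 6.37 in IX-XII (adjusted p = 0.0133 by limma), and without replicate 2 of IX-XII it did not pass (adjusted p = 0.174 by limma). F11r (adjusted p = 0.0518), Cadm1 (adjusted p = 0.231) and Esam (adjusted p = 0.987) did not pass by limma, although 1 other Cadm1 probe did (adjusted p = 1.13e-05 by limma), falling by 0.58 (SE 0.12) at VII-VIII over IV-VI.

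Between successive stage groups, IV-VI over I-III called Jam3 (-0.57, SE 0.17), Nectin2 (-0.73, SE 0.22) and Cxadr (0.79, SE 0.26), against 20.6% of genes, but without any 1 of these 4 arrays at most 1 of them passed, and Nectin2 turned to 0.18 with normexp background correction. VII-VIII over IV-VI called Nectin2, 1.2 higher (SE 0.22), Jam2, 0.66 higher (SE 0.13), and Jam3 (-0.5, SE 0.17), against 41.1% of genes. By the mean of detected probes Jam2 differed by 0.11 (adjusted p = 0.665 by limma), and Jam3 passed under 8 of 13 alternatives, but not without replicate 2 of IV-VI (-0.34, adjusted p = 0.213 by limma) or replicate 1 of VII-VIII (-0.38, adjusted p = 0.181 by limma). IX-XII over VII-VIII called Jam3, 0.81 higher (SE 0.17), Nectin3, 0.42 higher (SE 0.16), Jam2 (-0.55, SE 0.13) and Cxadr, against 48.7% of genes. Cxadr was 2.66-fold lower in IX-XII by this probe, with neither array of that group above background. By the mean of detected probes Cxadr differed by -0.29 for that step and did not pass, and its difference among stages did not pass either (adjusted p = 0.22 by limma). The other Nectin3 probes gave 0.05 and 0.06 (SE 0.14 each), and without replicate 2 of IX-XII Nectin3 gave 0.15. I-III over IX-XII called Nectin3 (-0.56, SE 0.16), 1 of 7 members tested, against 32.8% of genes, and it did not pass without replicate 2 of either group (adjusted p = 0.1 and 0.187 by limma). The last stages, VII-VIII and IX-XII, shared a slide, and the other stage differences cannot be told apart from slides. Marker sums also moved among untreated stages. Sertoli markers summed to 3.72 and 3.9 in I-III, 4.52 and 4.85 in IV-VI, 4.47 and 4.49 in VII-VIII, and 3.17 and 3.52 in IX-XII, the same order of stages as Cxadr. Spermatogonia markers and known RA targets were highest in VII-VIII, at 6.09 and 6.24 and at 5.53 and 5.71. Their part in the members' differences was not tested. Among 34 partner genes tested 21 differed among stages, against 67.9% of all genes tested. The polarity scaffold genes Patj and Mpdz were lower in VII-VIII than in IV-VI (-2.51, SE 0.3, and -2.23, SE 0.31), and the Par complex gene Pard6g was 1.22 (SE 0.19) higher.

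**Figure D3:**
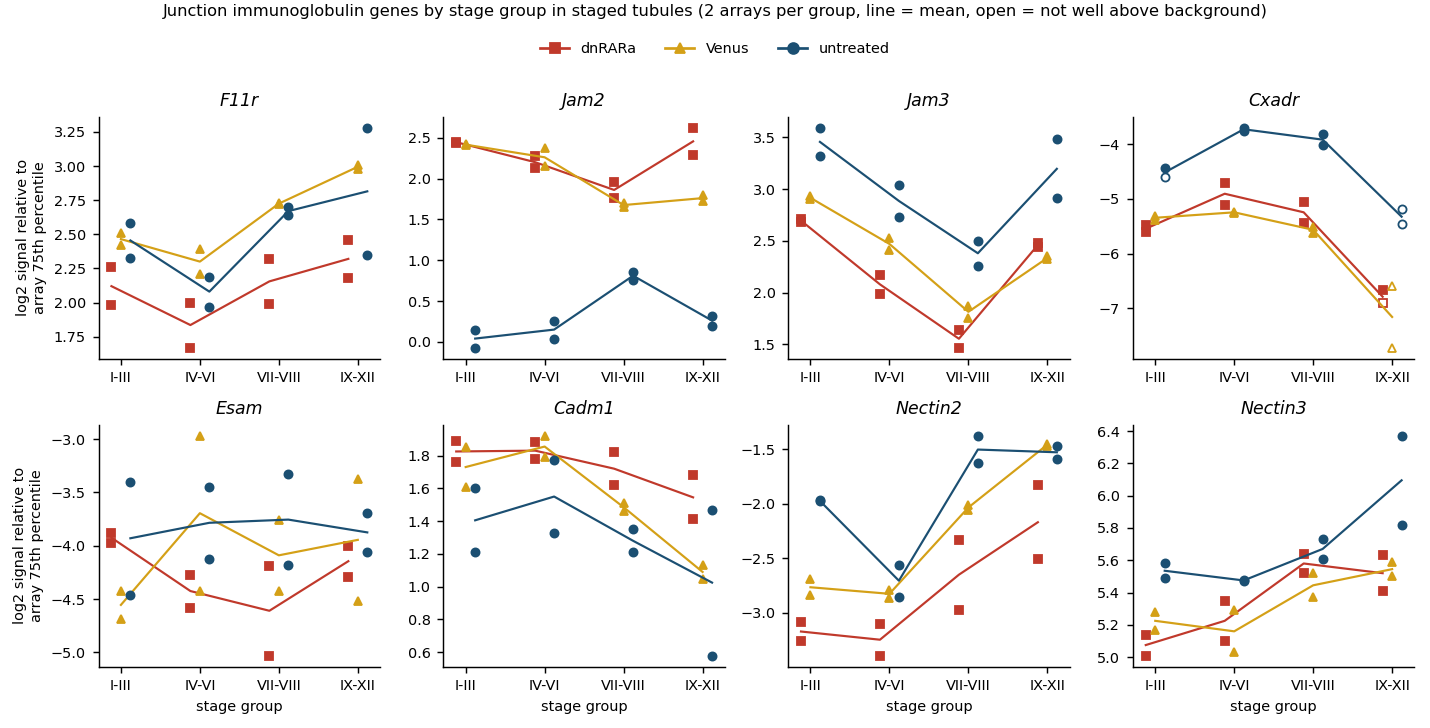
Level of each gene (y axis, log2 signal relative to the array 75th percentile) in 4 stage groups (x axis) of dnRARa, Venus and untreated tubules (points, 1 array each; lines, means of 2; open points, not well above background). Jam2 in both virus arms lies above all untreated arrays, and dnRARa arrays of F11r and Nectin2 have the lowest means of the 3 arms in every stage group.

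Both virus arms also showed 5 of 8 members that differed among stages, against 54.6% of genes in dnRARa tubules and 53.6% in Venus tubules. Jam2, Jam3, Cxadr and Nectin2 were called in both, with Nectin3 in dnRARa tubules and Cadm1 in Venus tubules. Jam3 was again lowest in VII-VIII, at 1.64 and 1.47 in dnRARa tubules and 1.87 and 1.76 in Venus tubules. Jam2 was lowest there too, unlike in untreated tubules, at 1.76 and 1.96 in dnRARa tubules and 1.7 and 1.65 in Venus tubules. The Venus arrays of IX-XII were close to the latter, at 1.8 and 1.72. Nectin2 was again higher late, at -2.51 and -1.83 in IX-XII against -3.08 and -3.26 in I-III of dnRARa tubules, and at -1.47 and -1.45 against -2.69 and -2.84 in Venus tubules. Cxadr was lowest in IX-XII, at -6.67 and -6.91 in dnRARa tubules, where 1 array was above background, and at -7.72 and -6.6 in Venus tubules, where none was. The calls of Nectin3 and Cadm1 were weak: Nectin3 in dnRARa tubules passed under 8 of 18 alternatives and was lost without any 1 of 6 of the 8 arrays (highest adjusted p = 0.158 by limma), and Cadm1 in Venus tubules passed under 6 of 18 and was lost without any 1 of the 8 (highest adjusted p = 0.206 by limma). With normexp background correction Cxadr passed in neither arm, and Jam2 in dnRARa tubules did not pass by the mean of detected probes (adjusted p = 0.373 by limma) or without replicate 1 of VII-VIII (adjusted p = 0.052 by limma). For no member did the stage profile pass as different between dnRARa and Venus tubules by limma's interaction F test, while 0.767% of genes passed. At an unadjusted p under 0.05 there was 1 of 8 members, Jam2 (adjusted p = 0.189 by limma), and the share of all genes at that level was not computed.

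dnRARa tubules were set against Venus tubules to see what blocking the receptor changes. Over the mean of the 4 stage groups F11r and Nectin2 were lower with dnRARa, by 1.43-fold and 1.45-fold. F11r was at 2.26 and 1.98 in I-III, 2 and 1.67 in IV-VI, 2.32 and 1.99 in VII-VIII, and 2.18 and 2.46 in IX-XII of dnRARa tubules, against 2.42 and 2.51, 2.21 and 2.39, 2.72 and 2.73, and 2.98 and 3.01 in the same stages of Venus tubules. Nectin2 was at -3.08 and -3.26, -3.39 and -3.1, -2.97 and -2.33, and -2.51 and -1.83 in dnRARa tubules, against -2.69 and -2.84, -2.86 and -2.79, -2.06 and -2.01, and -1.47 and -1.45 in Venus tubules. Within each stage group both dnRARa arrays lay below both Venus arrays for either gene.

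The difference was -0.52 for F11r (SE 0.12, adjusted p = 0.0099 by limma) and -0.54 for Nectin2 (SE 0.11, adjusted p = 0.00485 by limma), so that 2 of 8 members passed, both lower, against 12.2% of genes tested, 8.25% higher and 3.95% lower. Both passed under all 26 alternatives tried, with adjusted p from 0.00204 to 0.0357 for F11r and from 0.00109 to 0.0273 for Nectin2, by limma. Replicate 1 of every virus group was scanned on day 4 and replicate 2 on day 5. Within day 4 the mean difference was -0.4 for F11r and -0.72 for Nectin2, and within day 5 it was -0.64 and -0.36. On each day both genes were lower with dnRARa in 4 of 4 stage groups. These are the same arrays that gave the calls, so the signs describe the difference and are no separate test. The virus arms lay on separate slides within each day, so arm and slide cannot be told apart. Over the mean of stages Jam2 did not pass by its brighter probe (0.21, adjusted p = 0.0539 by limma). By its dimmer probe it was higher with dnRARa (0.51, SE 0.13, adjusted p = 0.0176 by limma).

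With scan day as a block in the 16 virus arrays 5 members passed, against 25.5% of genes: F11r and Nectin2 with Jam2 (0.21, adjusted p = 0.0374), Jam3 (-0.19, adjusted p = 0.014) and Cadm1 (0.19, adjusted p = 0.0147), by limma. In single stages without that block Jam2 alone passed, in IX-XII, where 4.51% of genes did. It was at 2.29 and 2.62 in dnRARa tubules, against 1.8 and 1.72 in Venus tubules (difference 0.7, SE 0.13, adjusted p = 0.00876 by limma). The dimmer Jam2 probe gave 1.21 (SE 0.25, adjusted p = 0.0139 by limma), and without Venus replicate 1, Venus replicate 2 or dnRARa replicate 2 of that stage the call was lost (adjusted p = 0.0594, 0.0935 and 0.131 by limma). With the block F11r (-0.68, adjusted p = 0.0271 by limma) and Cadm1 (0.46, adjusted p = 0.0134 by limma) also passed in IX-XII, and Jam3 in IV-VI (-0.39, adjusted p = 0.024 by limma). In the same IX-XII arrays Sertoli markers summed to 4.56 and 4.65 with dnRARa, against 3.97 and 3.97 with Venus, and erythroid markers to 2.15 and 1.97, against 0.39 and 0.46, and their part in the Jam2 difference was not tested. Without the block no member passed in I-III, IV-VI or VII-VIII by limma, where 0.00895%, 3.15% and 1.49% of genes passed. At an unadjusted p under 0.05 there were 0, 1 and 2 members, and the share of all genes at that level was not computed.

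Of 36 partner genes tested 6 passed over the mean of stages, against 12.2% of all genes tested. Pard6g was lower with dnRARa (-0.56, SE 0.1), as was Epb41l3, an adaptor that binds CADM proteins (-0.43, SE 0.1). The integrin gene Itgb3 was 0.52 higher (SE 0.12) and Jaml, a ligand of the Cxadr protein, 0.74 higher (SE 0.19). The Nectin2 relative Nectin1 differed by -0.15 (SE 0.1) and did not pass. Of 12 Sertoli markers 2 were higher and 1 lower. Peritubular myoid markers, with 3 of 6 lower in dnRARa tubules and none higher, and spermatocyte markers, with 3 of 8 higher and none lower, moved beside these genes. Their part in the differences was not tested. Cyp26a1, the RA-degrading enzyme that RA induces, was lower with dnRARa (-1.31, SE 0.36). The sum of the 5 known RA targets, Cyp26a1 among them, overlapped between the arms in I-III, VII-VIII and IX-XII. In VII-VIII it was 4.73 and 5 with dnRARa, against 4.85 and 4.47 with Venus. In IV-VI it was lower with dnRARa, at 2.56 and 2.28, against 2.65 and 2.94 with Venus.

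**Figure D4:**
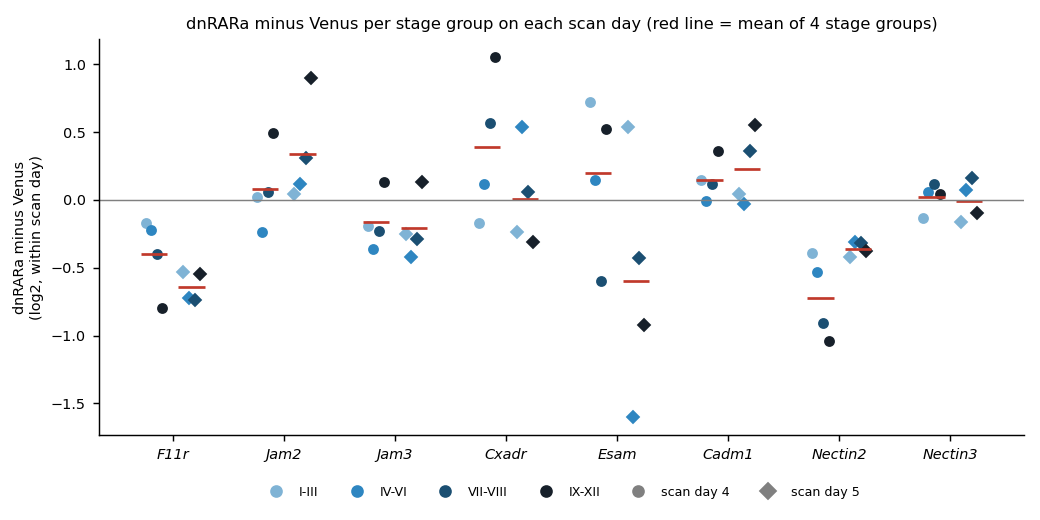
dnRARa minus Venus (y axis, log2) for each gene (x axis), computed within scan day 4 (circles) and scan day 5 (diamonds), 1 point per stage group and a red line at the mean of 4. All points of F11r and Nectin2 lie below 0.

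Venus tubules were set against untreated tubules to describe what injection with the control virus carries with it. Jam2 was higher in Venus tubules, and Jam3, Cxadr, Nectin2 and Nectin3 lower, 5 of 8 members against 66.8% of genes tested, 36.2% higher and 30.6% lower. Jam2 lay between 1.65 and 2.42 on the 8 Venus arrays, with a mean over stages of 2.03, against -0.07 to 0.86 and a mean of 0.32 on the 8 untreated arrays. The groups did not overlap in any stage. The difference was 1.71 (SE 0.07, adjusted p = 5.38e-11 by limma), 3.28-fold, and 1.01 (SE 0.13) by the dimmer probe. Cxadr differed by -1.46 (SE 0.13), Jam3 by -0.59 (SE 0.08) and Nectin2 by -0.34 (SE 0.11). Cxadr was not well above background on any IX-XII array of these arms, nor on replicate 2 of untreated I-III, so the size of its difference is uncertain. Neither other Cxadr probe was tested here. Nectin3 differed by -0.35 (SE 0.08) by its brightest probe, but by 0.19 (SE 0.07) and -0.09 (SE 0.07) by its others. Cadm1 did not pass by its brightest probe (0.22, SE 0.12), but was higher by its others (0.41, SE 0.1, and 0.65, SE 0.06) and by the mean of detected probes (0.43). Sertoli markers were higher in 10 of 12 cases and peritubular myoid markers in 6 of 6 in Venus tubules. Virus and scan day cannot be told apart here, since no untreated array was scanned on either day of the virus arms.

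Jam2 was also the member whose stage profile differed between Venus and untreated tubules (limma's interaction F test, a comparison added after the data were seen, adjusted p = 0.00251, 1 of 8 members against 2.6% of genes). Its mean in Venus tubules was 2.41 in I-III, 2.26 in IV-VI, 1.68 in VII-VIII and 1.76 in IX-XII, against 0.04, 0.15, 0.81 and 0.26 in untreated tubules. VII-VIII thus had the lowest mean with Venus, close to that of IX-XII, and the highest without virus. The second Jam2 probe was above background on no untreated tubule array and on 7 of 8 Venus arrays. By that probe the profiles did not pass (adjusted p = 0.467 by limma), nor by the mean of detected probes (adjusted p = 0.195 by limma).

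**Figure D5:**
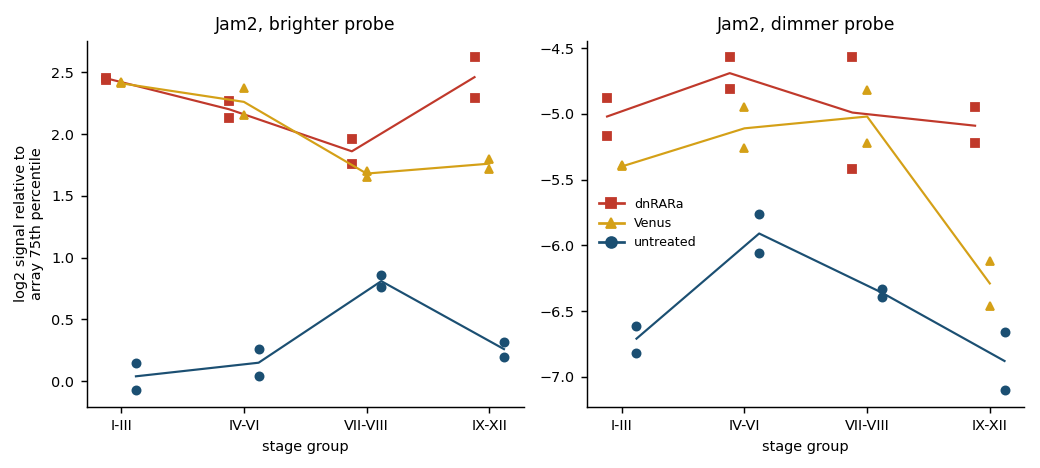
Jam2 by stage group (x axis) in dnRARa, Venus and untreated tubules from its brighter probe (left) and its dimmer probe (right), as log2 signal relative to the array 75th percentile (y axes, different ranges), 1 point per array and lines at means of 2. Both virus arms lie above untreated tubules with the brighter probe, and the untreated maximum is in VII-VIII on the left and in IV-VI on the right.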

How the data were processed

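RNA from 34 mouse samples was hybridised to one-colour arrays. The deposited scanner files hold intensities that Agilent Feature Extraction 9.5.3.1 background-subtracted and detrended within each array, per the file headers (9.5 per the submitters' processing notes), with no scaling between arrays, and deposited marks other than intensities, of 0 or 1 per spot, for spots above background, saturated or outlying. The authors' value table equalled these intensities at all 1530612 values.

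Control spots (1639 of 45018) and 32 to 274 outlier spots per array were left out, log2 was taken over the 75th percentile, and spots of a probe were averaged. Of 41174 probes 22951 were named through their accession in a RefSeq table and 67 through a symbol or synonym, and each gene was read from its probe with the highest mean signal. Under R 4.3.3 (data.table release 1.17.8) limma 3.58.1 fitted a model to the 10 Sertoli and testis arrays (5 residual degrees of freedom) and another to the 24 tubule arrays (12). A gene was tested where both arrays of at least 1 group were well above background. p-values were Benjamini-Hochberg adjusted over all genes within each of 19 comparisons, with a threshold of 0.05. The share of all genes whose groups did not overlap was not computed, so overlap only describes the values printed. The fit was tested on simulated data. The number of arrays limits the precision. Where a group had no array above background, the fold sets it at its lowest detected signal or the probe's own, whichever is higher. Such a fold is not a lower bound on the difference.

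The members, partner lists and marker lists were chosen with earlier results of these data known. Genes named are the 8 members, the 3 genes most correlated with each over group means, and from the partner lists up to 4 with the smallest adjusted p in a comparison. Nectin1 in the dnRARa comparison and Cadm4 and Vsig1 in the RA comparison were named after their values were seen. The alternatives tried were normexp background correction (offset 50), median or quantile scaling, no detection filter, the mean of detected probes, other sets of arrays per model, slide, scan day and replicate blocks, and each array left out.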

Additional observations from a re-analysis of the deposited data

Results flagged for a closer look

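The stage profile of Jam2 differed between Venus and untreated tubules (limma's interaction F test, adjusted p = 0.00251), which made it the only result of a member marked for a closer look. Jam2 was lowest in VII-VIII with Venus, at 1.7 and 1.65, close to IX-XII at 1.8 and 1.72. It was highest in VII-VIII without virus, at 0.86 and 0.76. The comparison was added after the data were seen, it passed under 24 of 25 alternatives, and by the mean of detected probes it did not (adjusted p = 0.195 by limma). By the dimmer Jam2 probe alone the profiles did not pass either (adjusted p = 0.467 by limma). Virus and scan day cannot be told apart in this comparison.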

How the results depend on the processing

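Of 150 member results 60 passed the threshold, 29 of them under every alternative run, 31 were lost under at least 1, and 36 of 90 others passed under at least 1. The directions that turned were Jam2 and Cadm1 in WT sorted cells over whole testes (0.91 and -0.03 by the mean of detected probes) and Nectin2 in untreated IV-VI over I-III (0.18 with normexp). The numbers of members past the threshold that moved were as follows. With normexp there were 5 for WT sorted over whole testes, 1 for RA over vehicle, and 3 for stage in dnRARa and in Venus tubules; the normexp background was fitted below 0 on some arrays, at -907.7 on untreated VII-VIII replicate 1. With no detection filter there were 1 for RA over vehicle and 0 for IV-VI over I-III. In models of only the arrays compared there were 8 for RA over vehicle, 0 for IV-VI over I-III, 1 for IX-XII over VII-VIII, 0 for I-III over IX-XII, 3 for stage in dnRARa tubules, 4 for the mean of dnRARa over Venus and 0 for its IX-XII. I-III over IX-XII had 0 with quantile scaling and 2 by the mean of detected probes, by which the Venus by stage interaction had 0. In 1 model of all arrays dnRARa over Venus in IX-XII had 2. With scan day as a block it had 3, IV-VI had 1 and the mean of stages 5. The cause of these changes was not tested.

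Leaving out 1 array gave 0 to 1 members for RA over vehicle (0 without replicate 2 of either group, 1 without replicate 1 of either), 4 to 6 for WT sorted over whole testes (4 without whole testes replicate 2), 0 to 1 for IV-VI over I-III, 0 to 2 for I-III over IX-XII, 3 to 5 for stage in dnRARa tubules (3 without VII-VIII replicate 1), 0 to 1 for dnRARa over Venus in IX-XII and 1 to 2 for the Venus by stage interaction (2 without IX-XII Venus replicate 2). The replicate block left 1 member past the threshold for RA over vehicle and kept every other such count within 1.5 times. In the labels and headers same-numbered arrays shared only a number, or a scan day in the virus arms. Their deviations correlated at -0.06 to 0.08 among Sertoli and testis groups. Among untreated tubules they correlated at 0.22 to 0.56, and among virus tubules at -0.07 to 0.51. The main stage tests did not use this pairing. A slide block could not be fitted for N3KO over WT or for culture over sorted cells. Cxadr lay near background on sorted WT and IX-XII arrays, so the size of its differences there is uncertain.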
